A study of Mus musculus with 3 samples.

Results

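The P. vulgatus library was set against the untreated library of mouse bone marrow derived dendritic cells (BMDCs), gene by gene, over every gene of the expression table. The comparison used 2 of the 3 samples of the study and all 55487 genes. Of these, 10507 genes reached 5 CPM (counts-per-million) in the P. vulgatus or the untreated library and were compared by size. BMDCs are antigen-presenting cells grown from marrow progenitors, and P. vulgatus (Phocaeicola vulgatus) is a bacterium of the gut. The first group was wild-type BMDCs treated with P. vulgatus, the last was wild-type BMDCs left untreated, and the third library of the study, wild-type BMDCs treated with the gut bacterial strain YB328, is given beside them where its level helps. The sources used here do not give dose, time, the state of the bacteria, the number of mice or the culture medium. Each group was 1 library, so there is no replicate check and no test: every interval below is an exact 95% interval that covers counting error only, not the spread between cultures.

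Dendritic cells sense bacterial products through pattern recognition receptors, and maturation then changes far more than cytokines. Maturing cells are known to shift to glycolysis, to remodel their membranes and cytoskeleton, to change uptake and secretion, and to leave the cell cycle. Interferon, cytokine and chemokine genes and the genes of arginine and prostaglandin metabolism were left aside here, and 83 lists of other functions were described in their place.

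A gene was called higher or lower when it reached 5 CPM in 1 of the 2 libraries, differed at least 2-fold after 0.5 CPM was added to each side, and had a counting interval of the ratio that left out 1. By this rule 2611 genes were higher with P. vulgatus (24.9% of the genes compared) and 2009 were lower (19.1%). A log2 ratio of 3 or more was reached by 428 of the higher genes, and 331 of the lower genes were lower by as much. The median log2 ratio of all genes compared was 0.14. Of the called genes 56.5% were higher. With the deposited transcripts-per-million (TPM) in place of scaled counts that share was 69.6% and the median of all genes moved by 0.35, so list medians are best read against the median of all genes. In bulk RNA, fewer cells of a type and less RNA per cell cannot be told apart.

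The libraries also differed in makeup. The total count was 26660869.8 with P. vulgatus and 15538132.9 in untreated cells. Protein-coding genes of the nucleus, leaving out Lars2, held 95.3% of the counts with P. vulgatus and 57.9% in untreated cells. Mitochondrial genes took 1.25% with P. vulgatus and 17.3% in untreated cells, and ribosomal RNA genes took 0.789% with P. vulgatus and 9.54% in untreated cells. In the YB328 library these shares were 96.6% for nuclear protein-coding genes, 0.899% for mitochondrial genes and 0.386% for ribosomal RNA genes. Incompletely described gene models (the TEC class of the annotation) moved with this difference, with 4 of 77 higher and 69 lower. Long intergenic RNA genes did so too, with 8 of 53 higher and 32 lower. Among protein-coding genes 2498 of 9949 were higher and 1721 were lower. Counts over nuclear protein-coding genes alone were used as an alternative, and each list below that changes side under it, or with the deposited TPM, is named with that change. With 1 library a side, makeup and treatment cannot be told apart.

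All 18 dendritic cell markers were detected in both libraries. Of these, 4 were higher and 5 were lower with P. vulgatus, a majority that turned to 5 higher and 3 lower with the deposited TPM. Ccr7, the receptor of migrating dendritic cells, had 5046 CPM with P. vulgatus and 672 CPM in untreated cells. Itgax, which encodes CD11c, had 22.6 CPM with P. vulgatus and 272 CPM in untreated cells. Cd74, the class II invariant chain, had 6578 CPM with P. vulgatus and 4726 CPM in untreated cells and was not called. Neutrophil markers at 5 CPM or more were mostly lower, with 1 of 13 higher and 11 lower, and all 18 markers listed for that cell type summed to 1643.5 CPM with P. vulgatus and 4728.8 CPM in untreated cells. Of the 14 macrophage markers at 5 CPM or more, 7 were higher and 1 was lower.

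**Figure D1:**
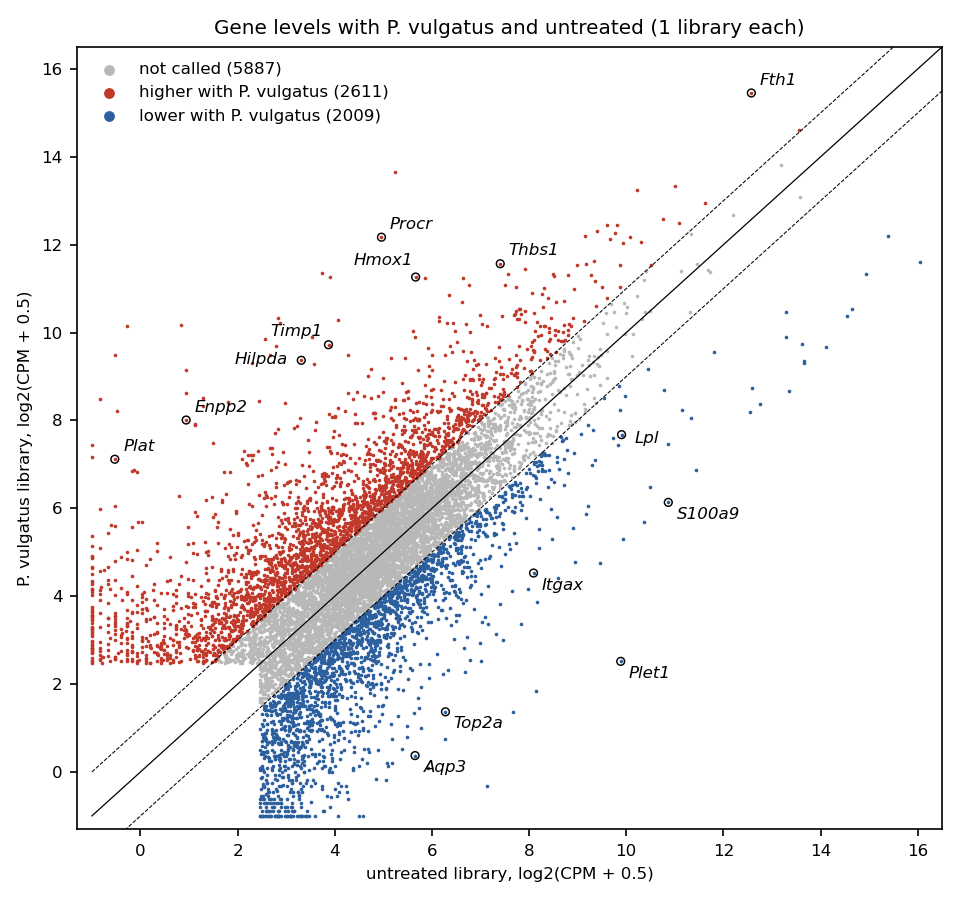
Each point is 1 of the 10507 genes compared, with its level in the P. vulgatus library on the vertical axis and in the untreated library on the horizontal axis, both as log2(CPM + 0.5). The 2611 higher genes lie above the upper dashed line of a 2-fold difference and the 2009 lower genes below the lower one. Plat, Enpp2 and Procr stand far above the diagonal, and Plet1 and Aqp3 far below it.

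Among the 20 highest ratios at 20 CPM or more were genes for secreted and surface proteins of the clotting, matrix and growth factor classes. Plat, which encodes tissue-type plasminogen activator (chromosome 8, 22757727 to 22782844, GRCm38), had 138 CPM with P. vulgatus and 0.194 CPM, or 3 counts, in untreated cells, a ratio of 715 (244 to 3468). Procr, the endothelial protein C receptor of the anticoagulant pathway (chromosome 2, 155751117 to 155755471), had 4611 CPM with P. vulgatus and 30.7 CPM in untreated cells, a ratio of 150.4 (137 to 165). Both genes were near the floor or low in untreated cells and high with P. vulgatus. Tgm2, a transglutaminase that crosslinks matrix proteins, had 960.3 CPM with P. vulgatus and 11.1 CPM in untreated cells. Timp1, an inhibitor of matrix metalloproteinases, had 845 CPM with P. vulgatus and 14.1 CPM in untreated cells. Sdc1, the heparan sulphate proteoglycan syndecan 1, had 626 CPM with P. vulgatus and 11.4 CPM in untreated cells. All 3 rose by 54.8-fold or more. Thbs1, the adhesive glycoprotein thrombospondin 1, had 3034 CPM with P. vulgatus and 169 CPM in untreated cells.

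Of 41 matrix glycoprotein and proteoglycan genes at 5 CPM or more, 18 rose and 11 fell, a majority that turned to 21 higher and 23 lower when genes of any level were counted. The list median log2 ratio was 0.78. P4ha2, a collagen prolyl hydroxylase subunit, had 112 CPM with P. vulgatus and 3.1 CPM in untreated cells. Sparc, a collagen-binding matrix protein, went the other way, with 0.947 CPM with P. vulgatus and 41.5 CPM in untreated cells. Col1a1, a chain of type I collagen, was also lower and had 2.08 CPM with P. vulgatus and 203.7 CPM in untreated cells. Stroma and endothelium markers were split. Of 10 at 5 CPM or more, 4 were higher and 5 lower, the 16 listed summed to 139 CPM with P. vulgatus and 585 CPM in untreated cells, and Cdh5 was at 0 in untreated cells alone. With the deposited TPM 4 were higher and 3 lower. Their part in the results for Col1a1 and Sparc was not tested.

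Protease inhibitors and proteases were mixed. Of 18 serpin genes 8 rose and 2 fell, with a median log2 ratio of 0.83 that turned negative when genes of any level were counted. Serpinb2, plasminogen activator inhibitor 2, had 157 CPM with P. vulgatus and 3.87 CPM in untreated cells. Serpine2, which inhibits thrombin and plasminogen activators, had 148 CPM with P. vulgatus and 18.3 CPM in untreated cells. Both plasminogen activator inhibitors were thus higher along with the activator Plat. Mmp13, a collagenase, had 156 CPM with P. vulgatus and 10.5 CPM in untreated cells, whereas Mmp2, a gelatinase, had 3.14 CPM with P. vulgatus and 41.6 CPM in untreated cells. Mmp12, macrophage elastase, had 2747 CPM with P. vulgatus and 3297 CPM in untreated cells and was not called.

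Secreted growth factors rose more often than they fell, with 12 of 25 higher, 4 lower and a median log2 ratio of 0.84. Inhba, the activin A subunit, had 1311 CPM with P. vulgatus and 70.4 CPM in untreated cells. Vegfa, the angiogenic factor induced by low oxygen, had 363 CPM with P. vulgatus and 26.5 CPM in untreated cells. Pgf, placental growth factor of the same family, had 166 CPM with P. vulgatus and 5.81 CPM in untreated cells. These 3 ligands rose by 18.6-fold (17.5 to 19.8), 13.7-fold (12.4 to 15.2) and 28.6-fold (23.2 to 35.6). Kdr, the VEGF receptor 2, had 65.5 CPM with P. vulgatus and 0.194 CPM, or 3 counts, in untreated cells, so a receptor of this ligand family also rose. Dll4, a Notch ligand, had 24.3 CPM with P. vulgatus and no count in untreated cells, or at least 125.5-fold higher when the untreated library is set to the 3-count floor. Sema7a, a membrane-anchored semaphorin, had 122.6 CPM with P. vulgatus and 6.39 CPM in untreated cells. Among tetraspanins, which organise membrane microdomains, Cd81 had 355 CPM with P. vulgatus and 42.7 CPM in untreated cells, and Cd82 had 218.5 CPM with P. vulgatus and 42.9 CPM in untreated cells.

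Outside the chemokine receptors, the lowest log2 ratio with 0.5 CPM added was that of Plet1, a surface protein of intestinal dendritic cells and epithelia (chromosome 9, 50494525 to 50505482). It had 5.22 CPM with P. vulgatus and 946 CPM in untreated cells, 181-fold lower with P. vulgatus (153 to 216). Cd200r1, an inhibitory myeloid receptor, had 9.84 CPM with P. vulgatus and 142 CPM in untreated cells. Other paired immunoglobulin-like receptors were split, with 3 of 22 higher and 8 lower, and 6 higher and 5 lower with the deposited TPM. Pirb, an inhibitory receptor for class I molecules, was among the higher, at 278 CPM with P. vulgatus and 91.9 CPM in untreated cells.

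Promoter sequence is shown for Procr and Hilpda, as strongly higher genes, for Prdx1, which gained among the most counts, and for Top2a, a strongly lower one, as examples of the motifs counted below. The sequences are RefSeq promoters of GRCm38.p6, 250 bases before to 50 after the start of the gene, read 5′ to 3′ along the gene's strand. Procr lies at chr2:155750967-155751266 on the plus strand, Hilpda at chr6:29272238-29272537 on the plus strand, Prdx1 at chr4:116685349-116685648 on the plus strand and Top2a at chr11:99024140-99024439 on the minus strand. Capitals mark the AP-1 motif TGANTCA bound by FOS and JUN dimers in Procr and Hilpda. In Prdx1 they mark 2 AP-1 matches, and the second of these overlaps an antioxidant response motif, TGACNNNGC, bound by NRF2. In Top2a they mark the cell cycle homology motif TTTGAA and the NF-Y motif CCAAT, all on either strand.
Procr: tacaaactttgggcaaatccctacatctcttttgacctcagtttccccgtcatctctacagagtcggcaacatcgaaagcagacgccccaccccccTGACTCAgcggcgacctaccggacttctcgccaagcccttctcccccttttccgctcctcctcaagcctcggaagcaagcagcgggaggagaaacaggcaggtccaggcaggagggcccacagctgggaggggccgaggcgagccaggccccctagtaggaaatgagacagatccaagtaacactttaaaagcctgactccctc
Hilpda: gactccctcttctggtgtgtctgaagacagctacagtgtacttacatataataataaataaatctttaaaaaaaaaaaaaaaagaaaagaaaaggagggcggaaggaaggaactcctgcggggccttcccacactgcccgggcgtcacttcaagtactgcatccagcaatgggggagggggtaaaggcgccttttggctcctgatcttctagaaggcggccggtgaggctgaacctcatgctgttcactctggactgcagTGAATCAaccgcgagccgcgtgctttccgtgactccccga
Prdx1: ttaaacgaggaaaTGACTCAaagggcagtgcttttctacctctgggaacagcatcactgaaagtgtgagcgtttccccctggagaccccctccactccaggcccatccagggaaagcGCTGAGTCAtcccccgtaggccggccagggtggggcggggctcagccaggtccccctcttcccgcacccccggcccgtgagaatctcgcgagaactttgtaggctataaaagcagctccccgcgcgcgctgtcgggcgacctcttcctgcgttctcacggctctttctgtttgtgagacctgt
Top2a: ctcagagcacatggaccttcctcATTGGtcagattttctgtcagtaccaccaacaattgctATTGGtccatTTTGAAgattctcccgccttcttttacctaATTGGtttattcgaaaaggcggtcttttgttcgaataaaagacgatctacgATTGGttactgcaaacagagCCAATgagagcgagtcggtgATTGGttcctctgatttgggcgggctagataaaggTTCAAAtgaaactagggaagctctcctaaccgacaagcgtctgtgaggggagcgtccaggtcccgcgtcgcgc

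The shares below are of genes with at least a single promoter, and a match in any promoter of a gene counts, since some have several. The AP-1 motif was present in 14.7% of the 320 such genes higher by a log2 ratio of 3 or more. It was in 5.94% of the 202 genes lower by as much. The share was 6.36% over the 8149 genes compared and 8.97% over all 27025 genes with a promoter. The TATA motif TATAAA was in 17.8% of the higher genes and in 10.4% of the lower genes. Its share was 8.66% of all genes compared and 15.7% of all genes with a promoter. The cell cycle homology motif was in 15.6% of the higher, 25.2% of the lower and 14.2% of all genes compared. Over all genes with a promoter it was in 20.2%. Its share was thus largest in the lower genes, while that of the higher genes was close to all genes compared. The NF-Y motif CCAAT did not separate them, at 41.6% of the higher, 40.6% of the lower and 42.7% of all genes compared. The motif bound by IRF factors was in 16.9% of the higher, 8.42% of the lower and 4.185% of all genes compared. Its share over all genes with a promoter was 3.99%. For the motif bound by NF-kB subunits these shares were 2.19%, 1.485%, 0.589% and 0.466%. In sets of 320 and 202 genes, the NF-kB shares of the higher and lower genes rest on few matches. The interferon, cytokine and chemokine genes left aside elsewhere were kept in these sets. Of the 210 genes of that list with a promoter, 14.8% held the AP-1 motif, 19.5% the TATA motif and 29.05% the IRF motif. The shares thus do not describe the other functions alone. All describe letters within the 300 bases of each promoter and were not tested.

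Lists of lipid handling differed in how many members changed. Of 25 genes of lipid droplets and triglyceride turnover 11 rose and 2 fell, with a median log2 ratio of 0.78. Of 43 phospholipase and phospholipid remodelling genes 19 rose and 5 fell, with a median of 0.64. Of 37 sphingolipid enzyme genes 11 rose and 3 fell, with a median of 0.47. All 3 medians lay above the 0.14 of all genes compared. Fatty acid oxidation genes had 5 of 32 higher (15.6%), 2 lower (6.25%) and a median of 0.14. Both shares were below the 24.9% and 19.1% of all genes compared. Fatty acid synthesis and desaturation genes had 8 of 25 higher (32%), 5 lower (20%) and a median of 0.15. The lower share of the synthesis list was close to that of all genes compared. Over nuclear protein-coding genes alone the oxidation list had 4 higher and 4 lower, and the synthesis list turned to 5 higher and 8 lower.

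Among lipid droplet genes, Hilpda, a droplet protein that inhibits the lipase ATGL, had 661 CPM with P. vulgatus and 9.42 CPM in untreated cells, a ratio of 70.2 (59.6 to 83.2). Dgat2, which makes triglyceride, had 30.02 CPM with P. vulgatus and 2.13 CPM in untreated cells. Fabp4, a fatty acid binding protein, had 126 CPM with P. vulgatus and 9.55 CPM in untreated cells. The genes of droplet storage and fatty acid binding named here were thus the higher ones. Lpl, the lipase that releases fatty acids from lipoproteins outside the cell, had 204 CPM with P. vulgatus and 957 CPM in untreated cells and fell by 4.69-fold (4.54 to 4.84). Mgll, monoglyceride lipase, had 17.8 CPM with P. vulgatus and 50.4 CPM in untreated cells, a call lost with the deposited TPM. Both members that fell were lipases.

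Of the phospholipid genes, Enpp2, the secreted enzyme autotaxin that makes lysophosphatidic acid, had 257 CPM with P. vulgatus and 1.42 CPM in untreated cells, a ratio of 181 (119.6 to 289). Plpp3, a phosphatase that breaks lysophosphatidic acid down, had 129 CPM with P. vulgatus and 7.36 CPM in untreated cells. Genes for both the making and the breakdown of this lipid mediator were therefore higher. Pla2g4a, the cytosolic phospholipase A2 that frees arachidonic acid, had 41.3 CPM with P. vulgatus and 3.23 CPM in untreated cells. Pla2g7, which hydrolyses platelet-activating factor, had 669 CPM with P. vulgatus and 223 CPM in untreated cells. Lpcat4, a lysophospholipid acyltransferase, had 10.9 CPM with P. vulgatus and 54.2 CPM in untreated cells and fell. Smpd1, acid sphingomyelinase, had 21.5 CPM with P. vulgatus and 1.29 CPM in untreated cells, and Psap, the precursor of the saposin activators of lysosomal sphingolipid breakdown, had 5739.9 CPM with P. vulgatus and 2188 CPM in untreated cells.

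Carriers and channels changed in both directions. Of 21 amino acid transporter genes 7 rose and 3 fell. Their median log2 ratio was -0.01 and turned positive with the deposited TPM. Slc7a2, a carrier of cationic amino acids, had 1046 CPM with P. vulgatus and 48.7 CPM in untreated cells. Slc1a5, a glutamine carrier, had 24.7 CPM with P. vulgatus and 101 CPM in untreated cells. The cationic carrier rose by 21.5-fold (20.03 to 23.1) and the glutamine carrier fell by 4.09-fold (3.73 to 4.48). Of 15 monocarboxylate and organic anion carriers 7 rose and 3 fell, and Slc16a3, the lactate exporter MCT4, had 681 CPM with P. vulgatus and 35.3 CPM in untreated cells. Ldha, which makes lactate, had 4605 CPM with P. vulgatus and 1073 CPM in untreated cells. Slc15a3, a peptide and histidine carrier of endolysosomes, had 282 CPM with P. vulgatus and 39.4 CPM in untreated cells.

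Chloride, anion and proton channel genes had 5 of 15 members higher and 0 lower, with a median log2 ratio of 0.62. Clic4, a chloride intracellular channel protein, had 1662 CPM with P. vulgatus and 377 CPM in untreated cells. Lrrc8d, a subunit of the volume-regulated anion channel, had 141 CPM with P. vulgatus and 32.3 CPM in untreated cells. Hvcn1, the voltage-gated proton channel that supports the phagocyte oxidase, had 333 CPM with P. vulgatus and 113 CPM in untreated cells. Each of these 3 channel genes rose by 2.95-fold or more. Mcoln2, a cation channel of endosomes, had 130 CPM with P. vulgatus and 4.001 CPM in untreated cells. Aqp3, an aquaglyceroporin and among the 20 lowest ratios, had 0.795 CPM with P. vulgatus and 49.8 CPM in untreated cells, 62.7-fold lower (40.7 to 101.8).

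**Figure D2:**
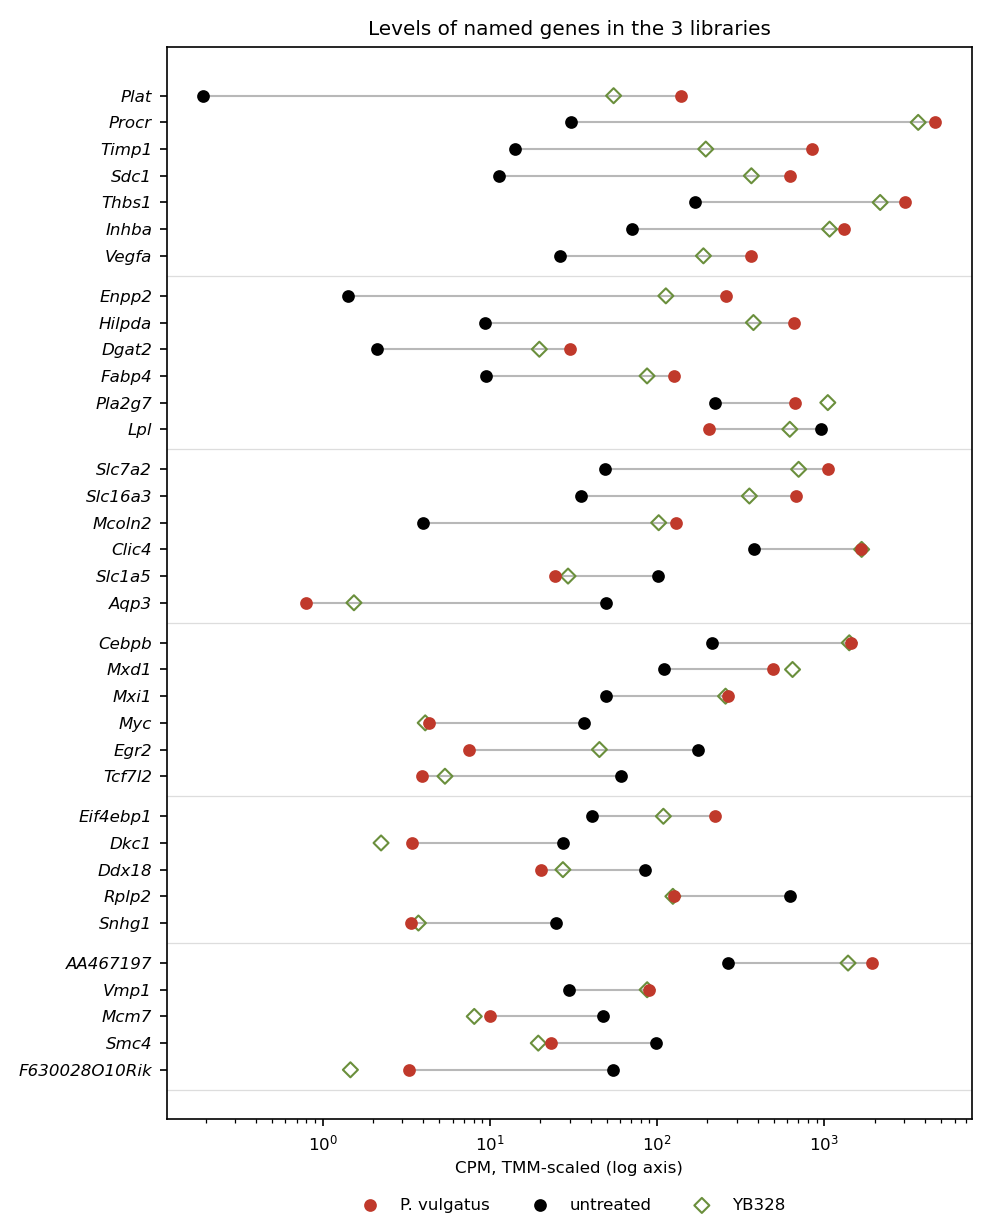
Each row is 1 gene and shows its level in the P. vulgatus library, the untreated library and, as an open diamond, the YB328 library, as TMM-scaled CPM on a log axis, 1 library a group and so with no error bar. Genes are grouped by role, from secreted and matrix genes at the top through lipid, transport, transcription and protein synthesis genes to microRNA hosts. Plat, Enpp2 and Hilpda lie far to the right with P. vulgatus, whereas Aqp3, Tcf7l2 and F630028O10Rik lie far to the left.

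Of 55 phosphoinositide kinase, phosphatase and lipase C genes 18 rose and 4 fell, with a median log2 ratio of 0.54. Inpp5j, a phosphatase of phosphoinositides, had 31.6 CPM with P. vulgatus and 0.323 CPM in untreated cells. Pik3r5, the p101 regulatory subunit of PI3K gamma, had 484 CPM with P. vulgatus and 110.2 CPM in untreated cells. Plcb2, the phospholipase C of Gq and Gi signalling in myeloid cells, had 5.22 CPM with P. vulgatus and 128 CPM in untreated cells and fell by 24.6-fold (20.7 to 29.4). Inside this list the lipase gene thus moved against the phosphatase and the PI3K subunit. Of 59 inducible serine/threonine kinase genes 16 rose, 27.1% and so close to the 24.9% of all genes compared, and 8 fell. Over nuclear protein-coding genes alone 14 of these kinase genes were higher and 11 lower. Plk2, a polo-like kinase induced by stress, had 286 CPM with P. vulgatus and 27.9 CPM in untreated cells. Pim2, a survival kinase, had 36.95 CPM with P. vulgatus and 2.0006 CPM in untreated cells.

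Membrane traffic lists held more higher than lower genes. Of 83 genes of secretory coats and the translocon 29 rose and 3 fell, with a median log2 ratio of 0.52. Of 44 SNARE and synaptotagmin genes, whose products fuse vesicles with target membranes, 19 rose and 5 fell, with a median of 0.7. Of 115 sorting nexin, ESCRT and endocytic adaptor genes 29 rose, 25.2% and so close to the 24.9% of all genes compared, and 12 fell, with a median of 0.51. Over nuclear protein-coding genes alone 23 of the last list were higher and 15 lower. Sec24d, a cargo-binding subunit of the COPII coat, had 50.4 CPM with P. vulgatus and 7.87 CPM in untreated cells. Stx11, a syntaxin of immune cells, had 445 CPM with P. vulgatus and 57.2 CPM in untreated cells. Ehd1, which recycles endosomes, had 811 CPM with P. vulgatus and 166 CPM in untreated cells. These 3 genes rose by 6.41-fold (5.32 to 7.77), 7.79-fold (7.27 to 8.35) and 4.88-fold (4.69 to 5.09). Arf1, the GTPase that recruits the COPI coat, had 482 CPM with P. vulgatus and 359 CPM in untreated cells and was not called. Vamp5, a vesicle-associated membrane protein, had no count with P. vulgatus and 11.5 CPM in untreated cells, which makes it at least 101-fold lower against a floor of 3 counts in the P. vulgatus library.

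Genes of ubiquitin ligation leaned the same way. Of 100 genes for F-box, KLHL and cullin proteins, the substrate receptors and scaffolds of cullin ligases, 39 rose and 9 fell, with a median log2 ratio of 0.64. Of 97 genes for RING finger and Nedd4-type ligases 37 rose and 9 fell, with a median of 0.42. Of 40 ubiquitin-conjugating (E2) list members 11 rose, 27.5% and so close to the 24.9% of all genes compared, and 2 fell. Over nuclear protein-coding genes alone 10 of the E2 list were higher and 4 lower. Deubiquitinases, which remove ubiquitin, had 11 of 64 higher (17.2%) and 7 lower (10.9%). Both shares were below the 24.9% and 19.1% of all genes compared. Ubb, which encodes ubiquitin itself, rose and had 4285 CPM with P. vulgatus and 1261 CPM in untreated cells. Klhl25, a cullin 3 adaptor, had 48.4 CPM with P. vulgatus and 4.45 CPM in untreated cells. Rnf19b, a ligase of the RBR type, had 755.5 CPM with P. vulgatus and 111 CPM in untreated cells. Ube2c, the E2 enzyme of the anaphase-promoting complex, was the exception, with 0.644 CPM with P. vulgatus and 33.1 CPM in untreated cells.

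**Figure D3:**
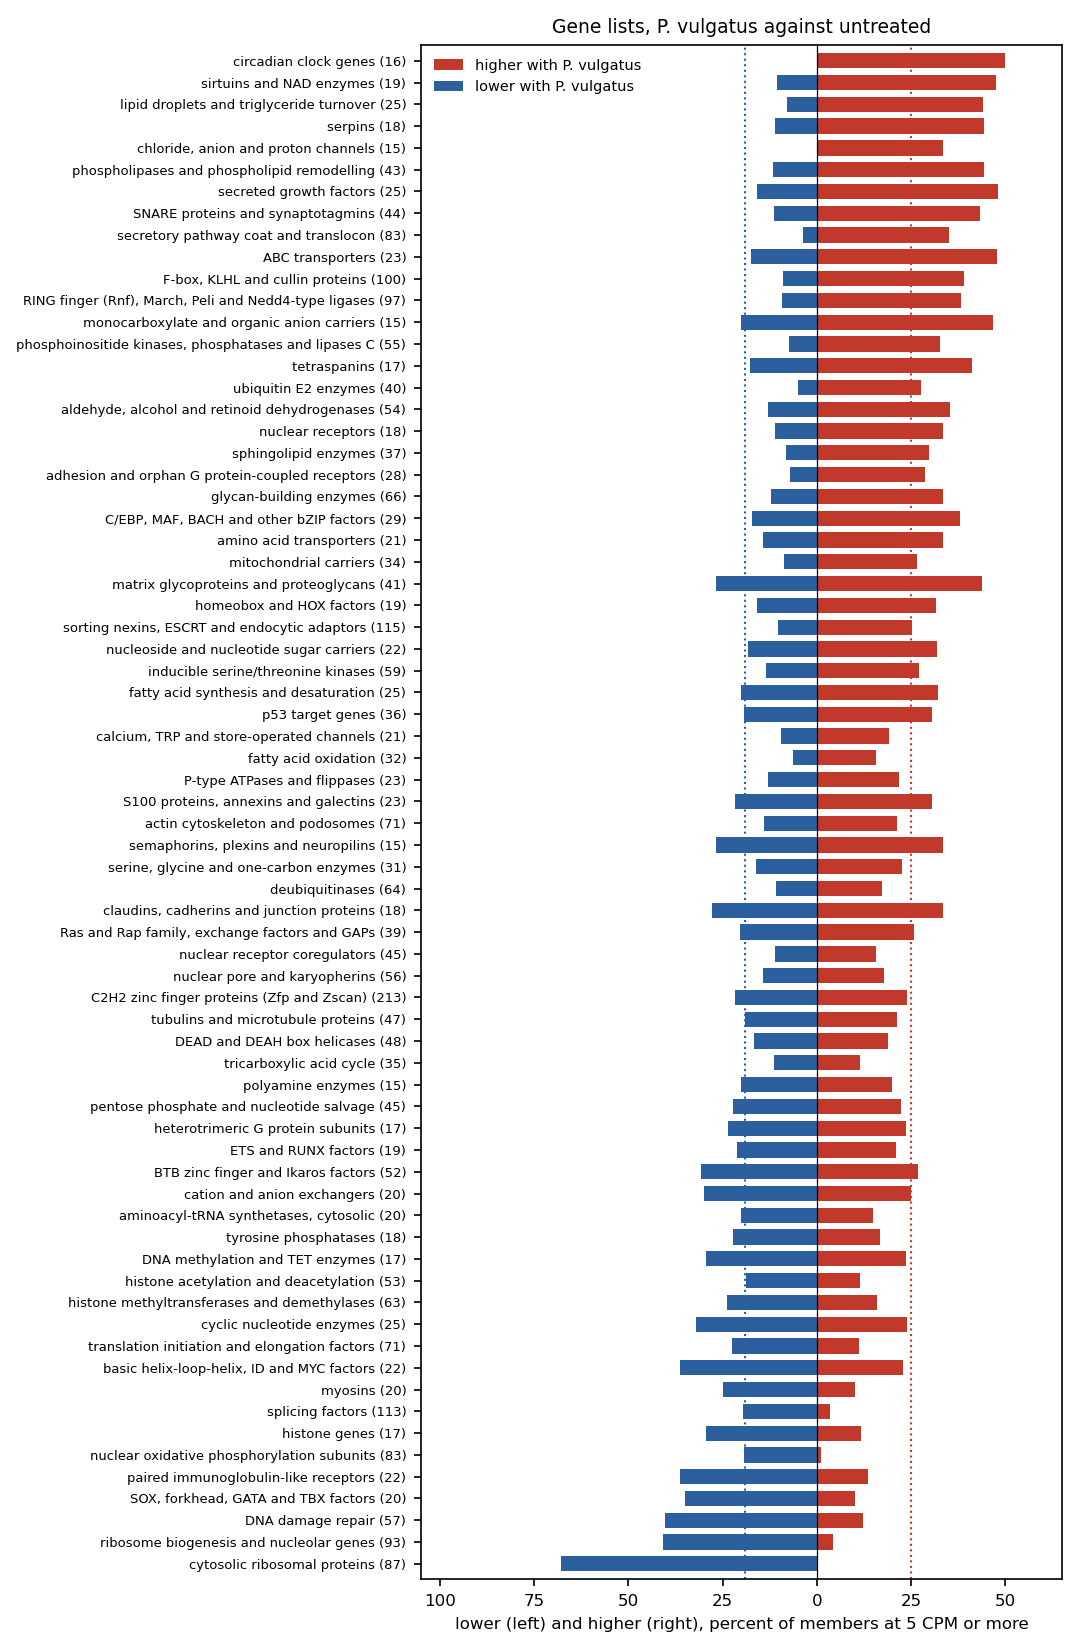
Bars give, for the lists shown with 15 or more members at 5 CPM (number in parentheses), the percent of those members higher with P. vulgatus (to the right) and lower (to the left). Dotted lines mark the shares over all 10507 genes, 24.9% higher and 19.1% lower. Clock genes top the plot with 50% higher, and cytosolic ribosomal proteins close it with 67.8% lower.

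Transcription factors changed in opposing sets. Of 29 C/EBP, MAF, BACH and other bZIP genes 11 rose and 5 fell, with a median log2 ratio of 0.29. Cebpb, a C/EBP factor of inflammatory gene expression, had 1445 CPM with P. vulgatus and 212 CPM in untreated cells. Cebpa, the C/EBP factor of granulocyte and monocyte progenitors, had 3.07 CPM with P. vulgatus and 12.6 CPM in untreated cells, a call lost with the deposited TPM.

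The MYC network genes named here, picked from their list by the naming rule, showed the same opposition. Myc had 4.32 CPM with P. vulgatus and 36.3 CPM in untreated cells, and Mycl, the family member of dendritic cells, had 4.51 CPM with P. vulgatus and 25.6 CPM in untreated cells. Mxd1, which competes with MYC for its partner MAX, had 491 CPM with P. vulgatus and 109 CPM in untreated cells. Mxi1, another such antagonist, had 265 CPM with P. vulgatus and 49.5 CPM in untreated cells. Both activating members named fell, by 8.42-fold (6.87 to 10.4) and 5.67-fold (4.61 to 7.02). Both antagonists named rose, by 4.5-fold (4.27 to 4.73) and 5.36-fold (4.97 to 5.78). Other members of the network are not given. The whole list of 22 basic helix-loop-helix, ID and MYC genes had 5 higher and 8 lower, and 6 of each with the deposited TPM.

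Among other factors, Egr2, a zinc finger factor of myeloid differentiation, had 7.46 CPM with P. vulgatus and 177 CPM in untreated cells. Tcf7l2, a mediator of Wnt signals, had 3.94 CPM with P. vulgatus and 60.8 CPM in untreated cells, and Sox4 had 10.8 CPM with P. vulgatus and 77.8 CPM in untreated cells. Fli1, an ETS factor of blood cells, had 4.43 CPM with P. vulgatus and 40.2 CPM in untreated cells. These 4 factors fell by between 7.19-fold and 23.7-fold. Of 20 SOX, forkhead, GATA and TBX genes 2 rose and 7 fell. Vdr, the vitamin D receptor, had 161 CPM with P. vulgatus and 29.5 CPM in untreated cells and rose.

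Clock genes had the highest share of higher members among the lists with 15 or more members compared, at 8 of 16 with 0 lower, and a median log2 ratio of 0.93. Over nuclear protein-coding genes alone 8 were higher and 4 lower. Nfil3, a repressor of D-box genes, had 363 CPM with P. vulgatus and 109 CPM in untreated cells. Bhlhe40, a repressor of clock E-boxes, had 913 CPM with P. vulgatus and 273 CPM in untreated cells. Rora, a nuclear receptor that drives Arntl, had 30.3 CPM with P. vulgatus and 8.45 CPM in untreated cells. Other higher members included Cry1, Cry2, Csnk1d and Tef, and Cry2 lost its call with the deposited TPM. The activators Clock and Arntl had fewer CPM with P. vulgatus but fell short of the 2-fold rule and were not called. Clock had 7.57 CPM with P. vulgatus and 14.4 CPM in untreated cells, and Arntl had 6.06 CPM with P. vulgatus and 11.7 CPM in untreated cells.

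Genes that make the protein synthesis machinery fell more often than they rose. Of 87 cytosolic ribosomal protein genes 0 rose and 59 fell, with a median log2 ratio of -1.21. Of 93 genes of ribosome biogenesis and the nucleolus 4 rose and 38 fell, with a median of -0.79. Of 10 host genes of small nucleolar RNAs, which guide ribosomal RNA modification, 0 rose and 9 fell, with a median of -1.81. Each of these 3 lists kept its majority with the deposited TPM, at 0 higher and 39 lower, 4 higher and 27 lower, and 0 higher and 10 lower. Over nuclear protein-coding genes alone the first had 0 higher and 62 lower and the next had 4 higher and 43 lower, while the RNA hosts are not among those genes. Noncoding classes fell as well. Of 53 long intergenic RNA genes 32 were lower (median -1.51), and of 52 processed transcripts 28 were lower (median -1.24). The part of this wider difference in the result for the RNA hosts was not tested.

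Rplp2, an acidic protein of the ribosomal stalk, had 125 CPM with P. vulgatus and 627 CPM in untreated cells, 5.0-fold lower (4.81 to 5.2). Dkc1, dyskerin, the pseudouridine synthase of ribosomal RNA, had 3.45 CPM with P. vulgatus and 27.2 CPM in untreated cells, 7.9-fold lower (6.29 to 10.03). Ddx18, a nucleolar helicase, had 20.3 CPM with P. vulgatus and 85.2 CPM in untreated cells. Snhg1, a small nucleolar RNA host, had 3.37 CPM with P. vulgatus and 24.8 CPM in untreated cells. All 4 fell. Ncl, the abundant nucleolar protein nucleolin, had 150.3 CPM with P. vulgatus and 260 CPM in untreated cells and was not called. Eif4ebp1, which blocks cap-dependent initiation, rose to 220.5 CPM with P. vulgatus, against 40.98 CPM in untreated cells. Initiation and elongation factors as a list had 8 of 71 higher and 16 lower, which turned to 14 higher and 12 lower with the deposited TPM. The lower share, 22.5%, was close to the 19.1% of all genes compared. The higher share, 11.3%, was below the 24.9% of all.

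Splicing factor genes had 4 of 113 higher and 22 lower, and 13 higher and 15 lower with the deposited TPM. The lower share, 19.5%, was close to the 19.1% of all genes compared, and the higher share, 3.54%, was below the 24.9% of all. Mbnl1, a regulator of alternative splicing, had 62.6 CPM with P. vulgatus and 352 CPM in untreated cells and fell by 5.61-fold (5.31 to 5.93). Rbm25 had 88.5 CPM with P. vulgatus and 335 CPM in untreated cells. Hnrnpk, an abundant RNA-binding protein, had 502 CPM with P. vulgatus and 370.1 CPM in untreated cells and was not called. Nuclear genes for oxidative phosphorylation had 1 of 83 higher and 16 lower, and 4 higher and 6 lower with the deposited TPM. Here too the lower share, 19.3%, was close to that of all genes, and few members were higher (1.2%).

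**Figure D4:**
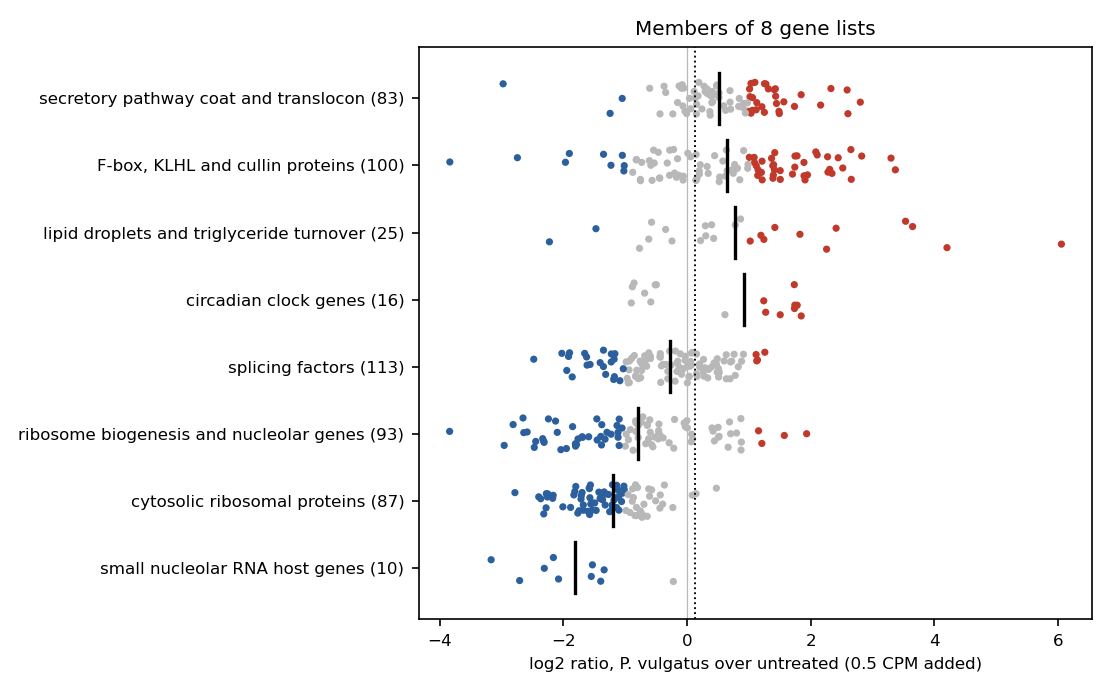
Each point is 1 member at 5 CPM or more, placed by its log2 ratio of the P. vulgatus over the untreated library with 0.5 CPM added, red where it was called higher, blue where lower and grey where not called. Black bars are list medians and the dotted line is the median of all genes, 0.14. Secretory, cullin ligase, lipid droplet and clock lists sit to its right, and splicing, ribosome biogenesis, ribosomal protein and small nucleolar RNA host lists to its left.

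DNA repair genes fell more often than they rose, with 7 of 57 higher, 23 lower, 27 not called and a median log2 ratio of -0.33. Top2a, the topoisomerase of dividing cells, had 2.08 CPM with P. vulgatus and 77.1 CPM in untreated cells, 37.03-fold lower (28.3 to 49.5). Clspn, claspin of the replication checkpoint, had 0.984 CPM with P. vulgatus and 20.6 CPM in untreated cells. Chek1, the checkpoint kinase that claspin activates, had no count with P. vulgatus and 7.94 CPM in untreated cells, which makes it at least 69.9-fold lower. Ercc1, an endonuclease subunit of nucleotide excision repair, was on the other side, with 25.9 CPM with P. vulgatus and 6.75 CPM in untreated cells. Cdkn1a, the cell cycle inhibitor p21, had 2086 CPM with P. vulgatus and 929.9 CPM in untreated cells and rose by 2.24-fold (2.2 to 2.29).

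MicroRNAs were not measured, but their host transcripts were. RefSeq places 409 hairpins inside 389 of the genes compared. Of these hosts 80 were higher and 79 lower with P. vulgatus, with a median log2 ratio of 0.02. Over all 10507 genes compared 2611 were higher and 2009 lower. The hosts described here were chosen after their values were seen. Mature sequences of chosen arms are printed to show their seeds, and so few chosen hosts do not link a seed to a direction. Seeds, bases 2 to 8, are in capitals. AA467197 (chromosome 2, 122636986 to 122641191) had 1914 CPM with P. vulgatus and 265 CPM in untreated cells, and Vmp1, an autophagy gene, had 89.7 CPM with P. vulgatus and 29.8 CPM in untreated cells. Mcm7, a subunit of the replicative helicase, had 10.02 CPM with P. vulgatus and 47.3 CPM in untreated cells, and Smc4, a condensin subunit, had 23.2 CPM with P. vulgatus and 98.03 CPM in untreated cells. The hosts of miR-147 and miR-21a rose, and those of the miR-106b and miR-15b clusters fell.
miR-147-5p in AA467197: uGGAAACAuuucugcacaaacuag
miR-21a-5p in Vmp1: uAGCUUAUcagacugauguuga
miR-106b-5p in Mcm7: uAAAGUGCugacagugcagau
miR-93-5p in Mcm7: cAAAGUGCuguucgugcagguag
miR-25-3p in Mcm7: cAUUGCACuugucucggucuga
miR-15b-5p in Smc4: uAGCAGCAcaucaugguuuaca
miR-16-5p in Smc4: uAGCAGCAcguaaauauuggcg
miR-223-3p in F630028O10Rik: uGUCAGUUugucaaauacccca

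The seed of miR-106b-5p is that of miR-93-5p, and miR-15b-5p shares its seed with miR-16-5p, whereas miR-25-3p, also in Mcm7, has another. F630028O10Rik, the host of the myeloid miR-223, had 3.29 CPM with P. vulgatus and 54.5 CPM in untreated cells. It fell together with S100a9, a neutrophil calcium-binding protein, which had 69.8 CPM with P. vulgatus and 1865 CPM in untreated cells, and with the neutrophil markers given above, whose part in it was not tested. A host level is not a microRNA level, and small RNAs were not analysed here.

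Enzymes of nicotinamide adenine dinucleotide (NAD) metabolism and glycan building also leaned to the higher side. Of 19 sirtuin and NAD genes 9 rose and 2 fell, with a median log2 ratio of 0.9. Nampt, the rate-limiting enzyme of NAD salvage, had 186 CPM with P. vulgatus and 43.3 CPM in untreated cells. Nnt is listed under a pair of gene identifiers that went opposite ways, at 8.41 CPM with P. vulgatus and 0.265 CPM in untreated cells for the one and at 0 CPM with P. vulgatus and 10.2 CPM in untreated cells for the other, so its direction is uncertain. Of 66 glycan-building enzyme genes 22 rose and 8 fell. Smox, spermine oxidase, had 566 CPM with P. vulgatus and 63.5 CPM in untreated cells.

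The YB328 library gives a level with another bacterium. The genes below were chosen after their values were seen, because the bacterial libraries differed in them. Timp1 had 845 CPM with P. vulgatus, 195 CPM with YB328 and 14.1 CPM in untreated cells, 4.32-fold higher with P. vulgatus than with YB328 (4.2 to 4.46). P4ha2 had 112 CPM with P. vulgatus, 24.3 CPM with YB328 and 3.1 CPM in untreated cells. Mgarp, a mitochondrial protein gene, had 42.9 CPM with P. vulgatus, 11.04 CPM with YB328 and 0.129 CPM in untreated cells. For these 3 genes YB328 lay between P. vulgatus and untreated cells. Plet1 had 5.22 CPM with P. vulgatus, 46.2 CPM with YB328 and 946 CPM in untreated cells. Lpl had 204 CPM with P. vulgatus, 621 CPM with YB328 and 957 CPM in untreated cells. Mycl had 4.51 CPM with P. vulgatus, 22.6 CPM with YB328 and 25.6 CPM in untreated cells. These 3 were lowest with P. vulgatus. Mmp13 was highest with YB328, with 156 CPM with P. vulgatus, 376 CPM with YB328 and 10.5 CPM in untreated cells. The 2 bacterial libraries differ from each other by 1 library a side as well, so these intervals too hold counting error only.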

How the data were processed

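Libraries of total RNA were made with a SMART-Seq v4 kit and Nextera XT, per the labels' protocols, 1 library a group. The submitters' processing notes name DRAGEN and the build GRCm38. The sources used here do not state strand, annotation or read length. Per the file headers, the authors deposited a count and a TPM value for each gene and library. The authors' deposited values are estimated counts, made by them from the reads and labelled as counts per the file headers, since 9.38% of values with P. vulgatus and 8.86% in untreated cells are not whole, and they were used as deposited without rounding. The unit TPM, deposited by the authors, served as an alternative. Depth was 26660869.8 counts with P. vulgatus and 15538132.9 in untreated cells. The floor of 3 counts came to 0.114 CPM with P. vulgatus and 0.194 CPM in untreated cells.

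Size factors were the trimmed mean of M values (TMM) over the 3 libraries, taken from edgeR 4.0.16 (R 4.3.3), and no edgeR test was run. CPM, ratios and exact (Clopper-Pearson) 95% intervals of count ratios were computed in Python 3.11.15 with scipy 1.17.1. Reads are not unique molecules, so intervals and floors cover counting error only. Genes were called by the rule of size given above, and no p-value was computed. Median-of-ratios size factors came from DESeq2 1.42.0. The procedure was checked on simulated counts that held counting error only. That check does not cover the spread between cultures or the difference in makeup.

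Members, gene lists, motifs and the rule were chosen with earlier results of these data known. The genes named are, per list, the members passing the rule with the largest ratios, up to 4, up to 2 in the other direction and the member with most CPM, plus the 20 highest and 20 lowest ratios and the 10 largest gains and losses at 20 CPM or more. Csnk1d, Nfil3, Cry1, Clock and Arntl fall outside that rule and were chosen after their values were seen. Of the table's symbols 114 are shared by several genes. Promoters and microRNAs are from RefSeq (GRCm38.p6), and 8149 of 10501 symbols compared matched a promoter. Tried as 10 alternatives were TMM over 2 libraries, scaling by total count or by median of ratios, nuclear protein-coding genes alone, the deposited TPM, no minimum, a minimum of 20 CPM, 0.1 or 2 CPM added, and thinning to the untreated depth.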

Additional observations from a re-analysis of the deposited data

Results flagged for a closer look

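Gm50241 (chromosome 8) was the gene called in opposite directions against untreated cells by the 2 bacterial libraries. It had 11.4 CPM with P. vulgatus, 0 CPM with YB328 and 5.02 CPM in untreated cells. The log2 ratio over untreated cells was 1.11 with P. vulgatus and -3.46 with YB328. The difference was not tested, the gene's counts are not whole, and its direction with P. vulgatus did not hold with the deposited TPM.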

How the results depend on the processing

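No paired analysis was possible because each group has 1 library, and no replicate could be left out for the same reason. The 2611 genes higher with P. vulgatus stayed within 1.5 times under each of the 10 alternatives. The 2009 lower genes became 1332 with the deposited TPM, 3647 with no minimum and 1043 with a minimum of 20 CPM. The 784 genes lower by a log2 ratio of 2 or more became 1228 with no minimum, 319 with a minimum of 20 CPM and 459 with 2 CPM added. With no minimum and with the minimum of 20 CPM the number of genes compared changes by construction, to 22289 and 6904. Otherwise the cause was not tested. The median log2 ratio of all genes moved by 0.35 with the deposited TPM, by -0.13 over nuclear protein-coding genes alone, by -0.15 with no minimum and by 0.13 with the minimum of 20 CPM. Of the called genes 51.9% were higher over nuclear protein-coding genes alone and 64.0% with the minimum of 20 CPM. Among the genes followed one by one, 2 changed sign with the deposited TPM: Gm50241, at a log2 ratio of -0.16, and Trpm4, at -0.0668. A further 126 lost their call with the TPM values and 18 gained one, and 6 lost it over nuclear protein-coding genes alone. Those 6 include Ftl1, ferritin light chain, and Clk3. With 1 library a side, depth limits low genes only, and the spread between cultures is unknown.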

Other observations

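Large gains in counts belonged to a few abundant genes. Fth1, ferritin heavy chain, had 44880.0 CPM with P. vulgatus and 6101 CPM in untreated cells. Prdx1, a peroxidase that removes hydrogen peroxide, had 10295 CPM with P. vulgatus and 2044 CPM in untreated cells. Pkm, pyruvate kinase, had 5565 CPM with P. vulgatus and 779 CPM in untreated cells, and Eno1, enolase, had 4954 CPM with P. vulgatus and 876 CPM in untreated cells. Ptma, prothymosin, was lower, at 195 CPM with P. vulgatus and 847 CPM in untreated cells, as was Cd52, at 302 CPM with P. vulgatus and 933 CPM in untreated cells.

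Some genes had next to no counts in untreated cells. Hamp, the iron hormone hepcidin, had 112 CPM with P. vulgatus and 0.452 CPM in untreated cells. Dnmt3l, a cofactor of DNA methyltransferases known from germ cells, had 29.3 CPM with P. vulgatus and 0.258 CPM in untreated cells, a ratio of 114 (44.2 to 418). Tmem119, a microglial marker, had 48.05 CPM with P. vulgatus and 0.194 CPM, or 3 counts, in untreated cells, a ratio of 248 (84.7 to 1205). In the other direction Egr3 had no count with P. vulgatus and 22.3 CPM in untreated cells, a call lost with the deposited TPM, and Mir9-3hg, the host of miR-9, had 0.0757 CPM with P. vulgatus and 14.5 CPM in untreated cells.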
